A study of Mus musculus with 5 samples.

Results

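The p53 gene Trp53, its regulators Mdm2 and Mdm4, and the p53 target genes Ccng1, Trp53inp1, Sesn1, Sesn2, Zmat3, Gadd45a and Gadd45b were examined in long-term haematopoietic stem cells (LT-HSCs) of mice that had lost LRF, the transcriptional repressor encoded by Zbtb7a. The genes were taken by name, and each probe set that the platform annotation gave to a single one of them was used. This gave 23 probe sets for 9 of the 10 genes, out of 45037 probe sets for 18193 named genes. No probe set in the tables used here was annotated to Trp53 alone, so Trp53 was not analysed here. A filter on dim probe sets left 20 of the 23 for testing.

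RNA was hybridised to 1 Affymetrix array per sample, with 3 Lrf knockout samples (Zbtb7a Flox/Flox Mx1-Cre+) and 2 control samples (Zbtb7a Flox/+ Mx1-Cre+). All were from C57BL/6 mice aged 4 weeks that carried Mx1-Cre and received 2 injections of pIpC, a double-stranded RNA analogue, of 250 µg each; cells were taken 9 days after the first. The controls were thus heterozygous for the floxed allele and exposed to the same Cre and pIpC. The Mx1 promoter answers to interferon and is active in many cell types, so deletion is not limited to stem cells. The sort took Kit+ Sca-1+ CD150+ cells that lacked lineage markers, IL7Ra, Flt3 and CD48. The label of knockout replicate 3 names 2 animals and those of the other samples 1 each. Values are log2 RMA intensities, in which 1 unit is a doubling.

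The p53 protein is a transcription factor that is held at low levels by MDM2, a ubiquitin ligase, and by its relative MDM4, and that accumulates after DNA damage and other stress. Its target genes stop the cell cycle, repair DNA, alter metabolism or start cell death, and one of them is Mdm2 itself, which closes a feedback loop. In the blood system p53 is known for its part in stem cell quiescence and in the loss of damaged stem cells. In mouse fibroblasts LRF is known to repress the Arf product of Cdkn2a, an inhibitor of MDM2. Several p53 targets, Gadd45b among them, are also induced by other stress signals.

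RefSeq promoter windows (GRCm38.p6, 250 bases before to 50 after a transcript start) were found for 8 of the 10 genes, 10 windows in all; Zmat3 and Trp53inp1 had none in the table. The windows of Mdm2, Ccng1 and Gadd45a are shown as examples that hold a match to the p53 binding consensus. That of Gadd45b is shown because its transcript was high in 1 array. The Trp53 window and 1 Sesn1 window also hold a match and are not shown. In the first 3 windows shown, capitals mark the p53 consensus match, and in Gadd45b they mark a TATAA.
Mdm2, chr10:117710709-117711008, minus strand: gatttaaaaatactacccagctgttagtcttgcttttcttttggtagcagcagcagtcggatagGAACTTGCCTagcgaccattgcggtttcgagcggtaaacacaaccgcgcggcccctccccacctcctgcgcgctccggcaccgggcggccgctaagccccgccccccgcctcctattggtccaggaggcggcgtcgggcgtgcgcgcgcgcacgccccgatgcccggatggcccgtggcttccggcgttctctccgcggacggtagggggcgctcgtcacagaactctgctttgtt
Ccng1, chr11:40755237-40755536, minus strand: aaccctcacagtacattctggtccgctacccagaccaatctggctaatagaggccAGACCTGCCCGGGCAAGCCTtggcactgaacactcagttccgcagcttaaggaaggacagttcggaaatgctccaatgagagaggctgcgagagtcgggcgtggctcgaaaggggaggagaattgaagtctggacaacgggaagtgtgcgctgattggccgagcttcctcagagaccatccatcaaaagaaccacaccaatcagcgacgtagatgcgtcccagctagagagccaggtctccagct
Gadd45a, chr6:67037358-67037657, minus strand: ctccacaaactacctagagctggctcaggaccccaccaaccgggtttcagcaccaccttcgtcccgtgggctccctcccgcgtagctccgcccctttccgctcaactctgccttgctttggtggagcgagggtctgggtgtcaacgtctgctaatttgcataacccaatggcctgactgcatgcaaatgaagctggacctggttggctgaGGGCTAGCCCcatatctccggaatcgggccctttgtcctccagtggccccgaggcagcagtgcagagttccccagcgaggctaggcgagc
Gadd45b, chr10:80929841-80930140, plus strand: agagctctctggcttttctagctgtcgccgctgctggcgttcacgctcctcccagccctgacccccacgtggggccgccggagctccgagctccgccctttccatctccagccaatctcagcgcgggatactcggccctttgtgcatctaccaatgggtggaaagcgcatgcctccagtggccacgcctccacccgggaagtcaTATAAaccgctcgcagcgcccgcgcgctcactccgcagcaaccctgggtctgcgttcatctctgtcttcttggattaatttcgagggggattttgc

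An exact match to the p53 half-site consensus, which reads the same on both strands, was present in 5 of the 10 windows, those of Trp53, Mdm2, Ccng1, Gadd45a and 1 of the 2 Sesn1 windows. The share was 8.36% over all 32841 windows of this length. Back-to-back half-sites with at most 2 mismatches over 20 bases occurred in Ccng1 alone of the members, from -195 to -176 relative to the transcript start, with 1 mismatch; the share over all windows was 0.798%. The half-site matches lay from -186 to -177 in Mdm2 and from -40 to -31 in Gadd45a. The best known p53 sites of Mdm2 and Gadd45a lie in introns, outside these windows. TATAA on either strand occurred in the windows of Trp53 and Gadd45b (24.9% of all windows) and the AP-1 motif TGANTCA in 1 of the 2 Mdm4 windows (7.81% of all windows). These matches describe letters in the windows and not bound sites.

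None of the members was called changed between knockout and control. In the limma fit across 27022 probe sets, 0 of the 20 member probe sets passed an adjusted p of 0.05, and 0% of all probe sets did. At an unadjusted p under 0.05 there was 1 member probe set, of Ccng1, and 306 probe sets in all. Of the 20, 14 were on average higher and 6 lower in knockouts, with a median log2 difference of 0.14. For 19 of them the difference was under 0.5 in size, and for 13 the whole 95% interval lay within 1 log2 unit of 0. On brightest probe sets such an interval was found for 4 of the 9 genes, Mdm2, Mdm4, Ccng1 and Sesn1. No tested probe set of Trp53inp1, Zmat3, Gadd45a or Gadd45b had one. Every knockout array lay above both controls for 4 member probe sets (3.61% of all probe sets), and 0 lay below (4.34% of all). These 4 belonged to Mdm2, Ccng1 and Sesn2, and Ccng1 gave more than 1 of them, so they are not 4 independent observations. In each case it was not the gene's brightest probe set. On the brightest probe sets of the 9 genes, 0 were above and 0 below both controls in every knockout.

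**Figure D1:**
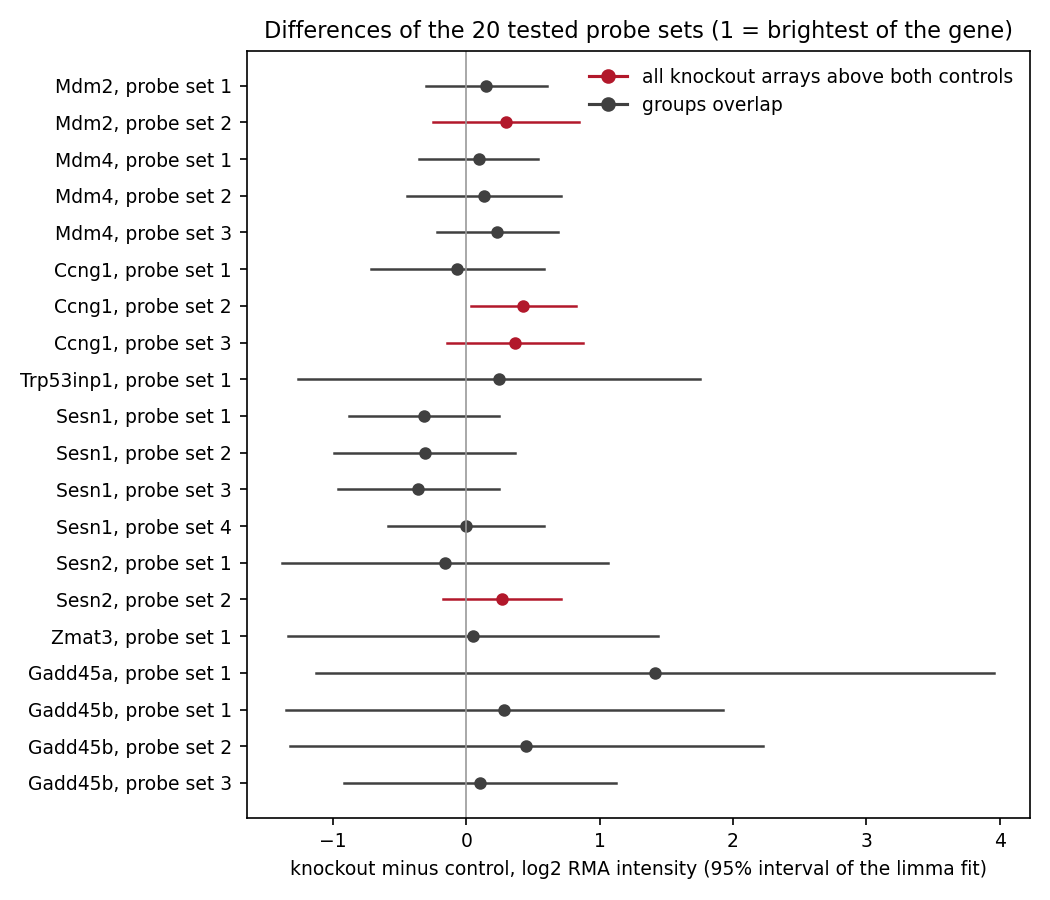
Log2 difference between the 3 knockout and 2 control arrays (horizontal axis) for each of the 20 tested probe sets, with its 95% interval from the limma fit; probe set 1 is the brightest of a gene. Red marks the 4 probe sets with all knockout arrays above both controls. The intervals of 19 probe sets include 0, that of Ccng1 probe set 2 runs from 0.03 to 0.82, and the widest is that of Gadd45a.

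The negative regulators of p53 had narrow ranges on their brightest probe sets. Mdm2, the ubiquitin ligase, read 10.16, 10.47 and 10.13 in knockout replicates 1, 2 and 3, against 10.04 and 10.16 in control replicates 1 and 2, on its brightest probe set (1423605_a_at). The groups overlapped, and knockout replicate 2 was the highest. The difference was 0.15 (SE 0.17, 1.11-fold, limma adjusted p = 1), and 0.04 without that array. A dimmer probe set (1427718_a_at) read 7.90, 7.98 and 8.39 in knockouts and 7.88 and 7.70 in controls, a difference of 0.30 (SE 0.21, adjusted p = 1). All knockouts lay above both controls here, by 0.02 at the nearest pair, and the groups overlapped after cyclic loess normalisation. The remaining Mdm2 probe set read 4.58 to 5.10 over the 5 arrays and was left out by the filter.

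Mdm4, which blocks the activating domain of p53 and pairs with MDM2, was even across arrays on its brightest probe set. This one (1460542_s_at) read 9.96, 9.96 and 10.06 in knockouts and 9.71 and 10.08 in controls. The knockout values lay between the controls, and the difference was 0.09 (SE 0.17, 95% interval -0.36 to 0.54). The other tested Mdm4 probe sets differed by 0.13 (SE 0.22) and 0.23 (SE 0.17). Its dimmest was left out by the filter. Mdm4 had the smallest range over arrays of the 9 genes on brightest probe sets, 0.37, against 0.43 for Mdm2.

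Ccng1, which encodes cyclin G1, a p53 target that binds a phosphatase and acts back on MDM2, differed between its probe sets. The brightest (1420827_a_at) read 11.78, 11.10 and 11.63 in knockouts and 11.55 and 11.58 in controls. Knockout replicate 2 was the lowest there and the other knockouts were the highest, so the difference was -0.07 (SE 0.25) with that array and 0.14 without it. The second (1450016_at) read 9.18, 8.98 and 9.22 in knockouts and 8.67 and 8.73 in controls. All 3 knockouts lay above both controls, with a gap of 0.24 between the nearest values. The difference was 0.43 (SE 0.15, 1.34-fold, unadjusted p = 0.0393, limma adjusted p = 1), and lay between 0.38 and 0.50 when any 1 array was dropped. The dimmest (1450017_at) read 8.30, 8.06 and 7.97 in knockouts and 7.57 and 7.92 in controls, a difference of 0.36 (SE 0.19). Neither of these overlapped after cyclic loess or median centring either. The Ccng1 window printed above is the one with the back-to-back p53 half-sites.

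Trp53inp1, a p53 target that promotes autophagy and cell death, varied widely among the knockouts. Its tested probe set read 11.17, 12.28 and 10.42 in knockouts, against 11.15 and 10.93 in controls. The highest and the lowest value of the 5 arrays were both knockouts. The difference was 0.25 (SE 0.58), and -0.25 without knockout replicate 2. The second Trp53inp1 probe set was dim, at 6.08 in knockout replicate 2 and 5.24 to 5.37 elsewhere.

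The sestrins, which restrain mTORC1 signalling and protect against oxidative stress, had negative differences on their brightest probe sets. Sesn1 read 11.65, 11.39 and 11.68 in knockouts and 11.65 and 12.13 in controls (1433711_s_at). Control replicate 2 was the highest and the other 4 arrays lay close together. The difference was -0.32 (SE 0.21, limma adjusted p = 1), and -0.08 without control replicate 2. Sesn1 probe sets 1438931_s_at and 1454699_at had like differences of -0.31 (SE 0.26) and -0.36 (SE 0.23), and the dimmest of the 4 one of -0.0006 (SE 0.22). After cyclic loess 1433711_s_at and 1454699_at had every knockout below both controls.

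Sesn2, which is also induced by amino acid shortage, read 8.44, 9.44 and 8.0025 in knockouts and 8.94 and 8.63 in controls on its brightest probe set (1425139_at). Knockout replicate 2 was above and the other knockouts below both controls. The difference was -0.16 (SE 0.47), and -0.56 without knockout replicate 2. Its other probe set (1451599_at) read 7.83, 8.03 and 7.78 in knockouts and 7.74 and 7.48 in controls. The groups did not overlap there, by 0.04, with a difference of 0.27 (SE 0.17), but did after cyclic loess. The 2 Sesn2 probe sets thus gave differences of opposite sign.

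Zmat3, a p53 target that encodes an RNA-binding zinc finger protein, read 7.88, 6.49 and 7.75 in knockouts and 6.93 and 7.72 in controls. The groups overlapped, with the lowest value in knockout replicate 2, and the difference was 0.05 (SE 0.53). It was 0.49 without knockout replicate 2 and -0.35 without control replicate 1.

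**Figure D2:**
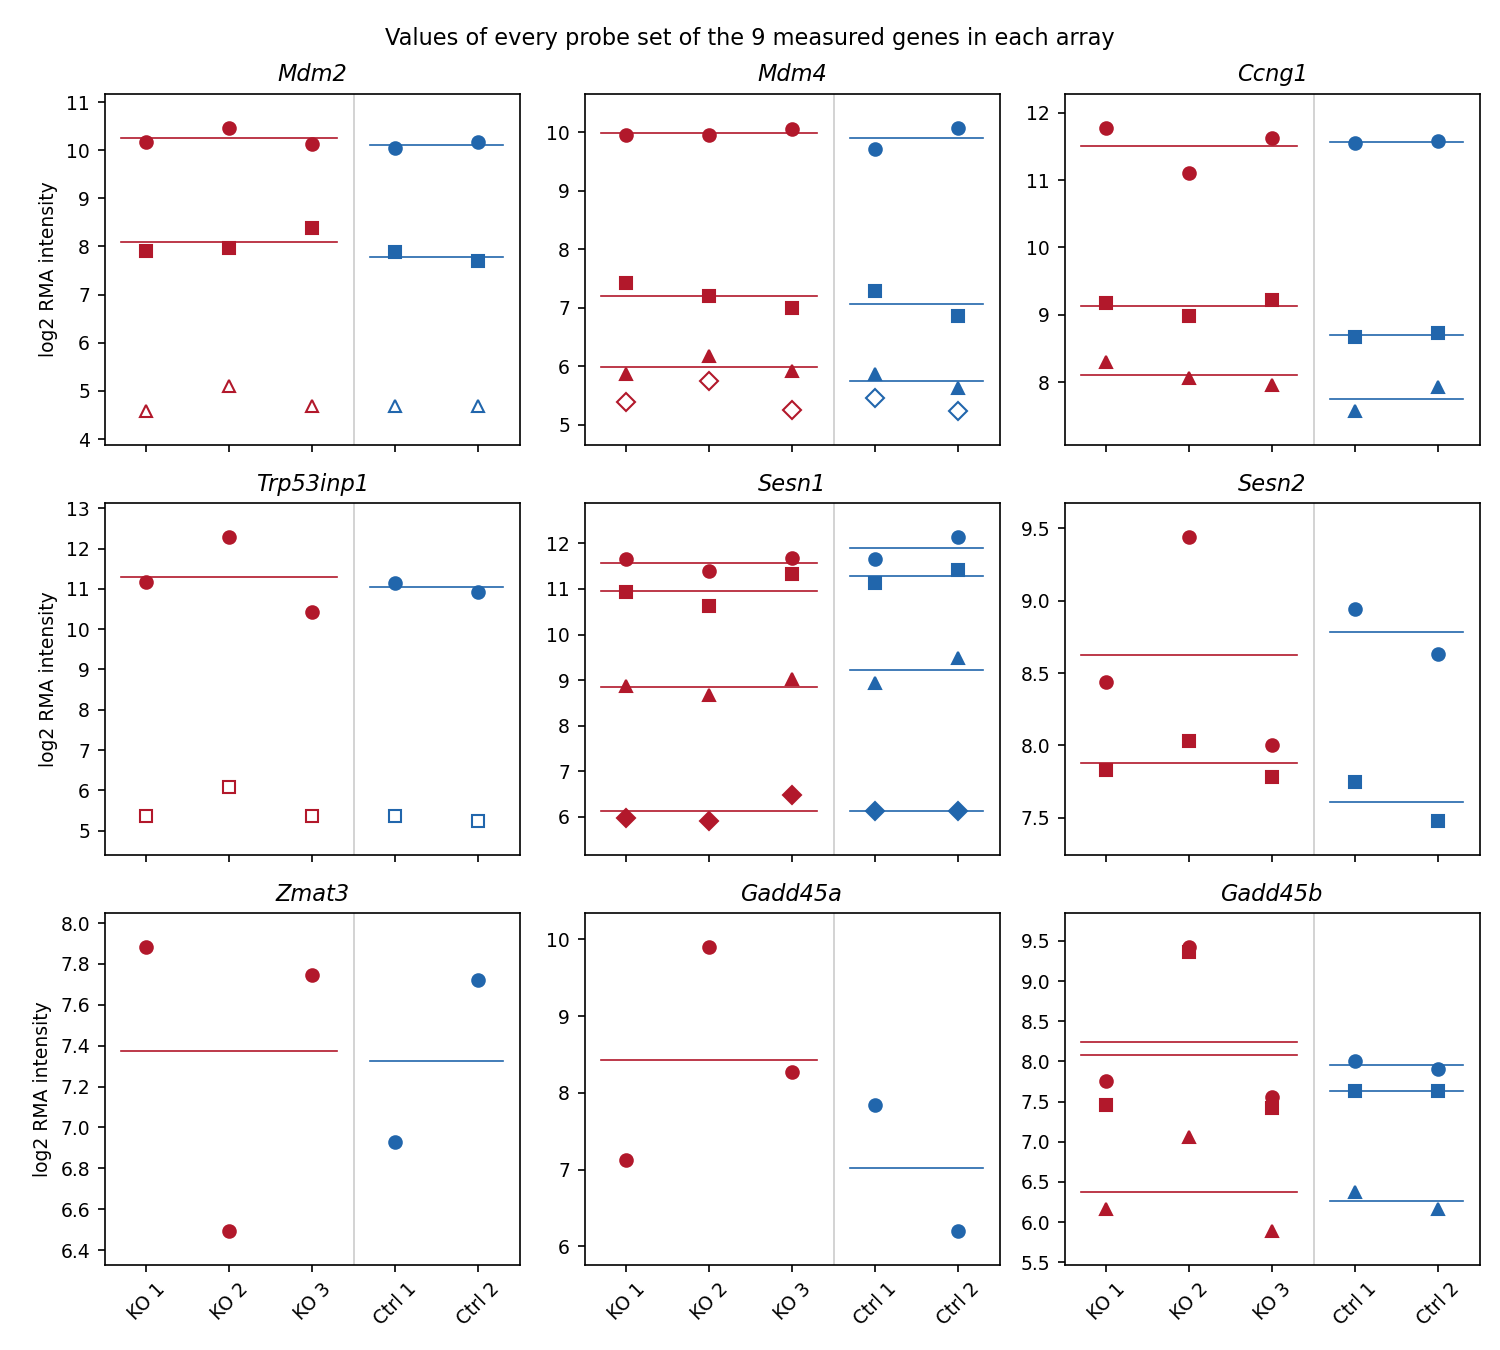
Log2 RMA intensity (vertical axis, a scale of its own in each panel, not starting at 0) of every probe set of the 9 measured genes in the knockout (KO, red) and control (Ctrl, blue) arrays. Each marker shape is 1 probe set, lines are group means, and open markers are probe sets left out by the filter. Gadd45a and all 3 Gadd45b probe sets are highest in knockout replicate 2, while the brightest probe sets of Mdm2 and Mdm4 span 0.43 and 0.37 over the arrays.

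The Gadd45 genes encode small stress sensors that bind cell cycle and MAP kinase pathway proteins; Gadd45a is a p53 target and Gadd45b is better known as a target of NF-kappaB and TGF-beta signalling. Gadd45a had the largest difference of the members and the widest range. It read 7.13, 9.90 and 8.28 in knockouts and 7.84 and 6.20 in controls, a range of 3.70. Knockout replicates 2 and 3 lay above both controls, and replicate 1 lay between them. The difference was 1.41 (SE 0.97, 2.67-fold, 95% interval -1.13 to 3.96, limma adjusted p = 1). It was 0.68 without knockout replicate 2 and 0.60 without control replicate 2, but 2.07 without knockout replicate 1 and 2.23 without control replicate 1. With array weights it was 0.31.

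Gadd45b stood apart in 1 array. It read 7.76, 9.42 and 7.55 in knockouts and 8.01 and 7.91 in controls (1450971_at). Knockout replicate 2 was the highest and the other knockouts were below both controls. The difference was 0.28 (SE 0.62), and -0.30 without that array. The second probe set (1449773_s_at) read 7.46, 9.37 and 7.42 in knockouts and 7.63 in each control, and the dimmest (1420197_at) 6.17, 7.06 and 5.89 in knockouts and 6.37 and 6.17 in controls. All 3 Gadd45b probe sets thus had their highest value in knockout replicate 2, by 0.91 to 1.83 above the mean of the other arrays.

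Knockout replicate 2 stood apart across the series: its correlation with the other arrays over 45037 probe sets, which are not independent, was 0.945 to 0.970, against 0.977 to 0.990 for pairs without it. For actin, 3' minus 5' control probe sets, a measure of RNA length, gave 3.85 there and 4.90 to 5.21 in the others. For GAPDH the gap was smaller, with 4.67 there and 5.06 to 5.17 in the others. A smaller value means relatively more signal from the 5' end. Genes of LT-HSCs were measured in all 5 arrays, with Kit at 9.60 in knockout replicate 2 and 11.12 to 11.82 elsewhere, and 10 of 10 tested LT-HSC genes were lowest in that array. Among surface genes excluded by the sort, Il7r differed by 2.34 (SE 0.98), Cd48 by 0.73 (SE 0.58) and Flt3 by -0.38 (SE 0.40). Of 5 tested lineage genes, 4 were highest in knockout replicate 2, against 26.2% of all tested genes. The brightest Zbtb7a probe set read 8.72, 8.33 and 9.06 in knockouts and 8.22 and 8.36 in controls (exact two-sided permutation p = 0.3, smallest possible 0.1), a difference of 0.41. The other tested Zbtb7a probe sets differed the other way, 1450093_s_at by -0.36 (SE 0.31; -0.59 without knockout replicate 2) and 1437255_at by -0.05 (SE 0.18). Which part of Zbtb7a was deleted is not in the labels, so the deletion was not checked by these probe sets. Genes of macrophages, a cell type outside the sort, were lower on average in knockouts for 13 of 14 list members, against 56.3% of all tested genes. Interferon response genes were higher for 9 of 9, against 43.7% of all tested genes. By the median of the list they were highest in knockout replicate 1, though Rsad2 and Ifi27l2a were highest in knockout replicate 2. In sorted bulk RNA, fewer cells of a type and less RNA per cell cannot be told apart.

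Of the 9 measured p53 genes, 5 had their highest value in knockout replicate 2 (Mdm2, Trp53inp1, Sesn2, Gadd45a and Gadd45b) and 3 their lowest (Ccng1, Sesn1 and Zmat3), on their brightest probe sets. Over 12813 tested genes these shares were 26.2% and 40.7%. Immediate early genes, which growth factors and stress induce within minutes, were highest in the same array for 11 of 11 tested list members. Their median, with each gene centred on its own mean over the arrays, was 3.01 there and -0.94 to -0.59 in the others. The same centred median for LT-HSC genes was -1.82 there and 0.07 to 0.98 in the others. The part of RNA length, of immediate early genes and of stem cell content in the values of Gadd45a, Gadd45b and Trp53inp1 was not tested.

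**Figure D3:**
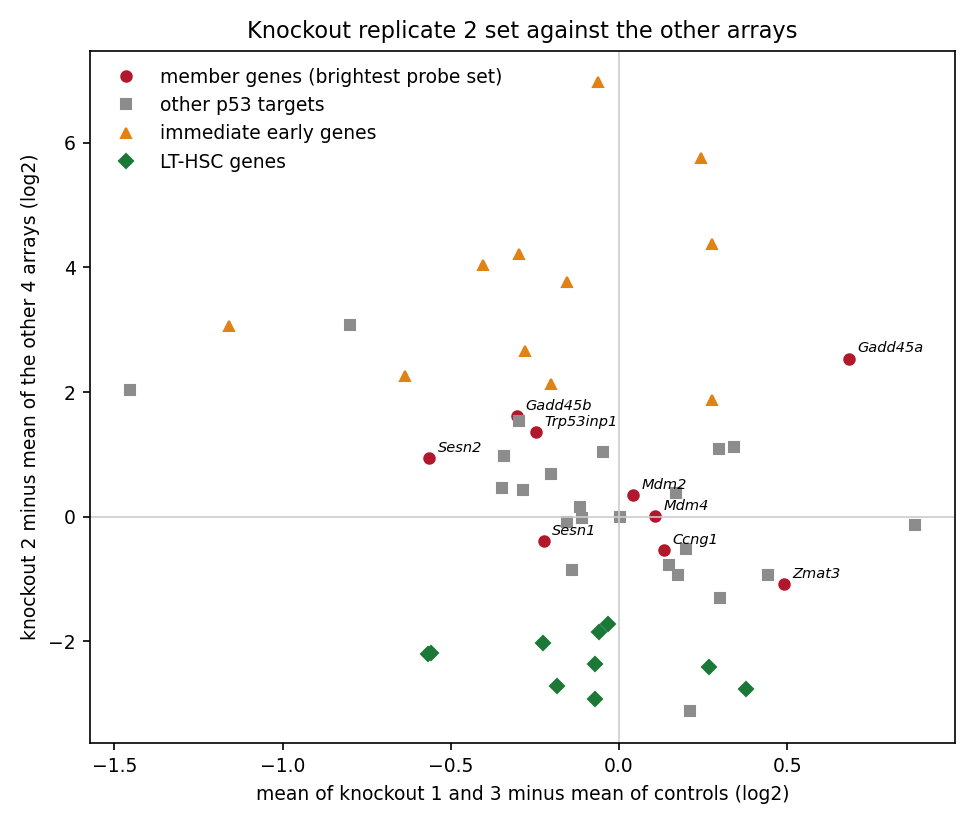
Knockout replicate 2 minus the mean of the other 4 arrays (vertical axis, log2) against the mean of knockout replicates 1 and 3 minus the control mean (horizontal axis, log2), 1 point per gene on its brightest probe set. Gadd45a, Gadd45b, Trp53inp1 and Sesn2 lie above 0 on the vertical axis, as do the immediate early genes (triangles). Zmat3 (-1.08), Ccng1 (-0.54) and Sesn1 (-0.39) lie below 0. The LT-HSC genes (diamonds) lie lower still, from -2.92 to -1.71. Mdm2 is at 0.35 and Mdm4 at 0.0050. Both axes use the same 4 arrays.

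The genes most like Gadd45a over the 5 arrays, by the smallest mean absolute distance of centred log2 values among 12812 other tested genes, were Stx11 (0.30), Gsr (0.34), H1f2 (0.38), Klf6 (0.40) and F10 (0.42). Stx11 encodes a syntaxin of granule release and Gsr encodes glutathione reductase. H1f2 encodes a linker histone, Klf6 a zinc finger factor and F10 coagulation factor X. Each was highest in knockout replicate 2, as was Gadd45a, which follows largely from how they were chosen. Stx11, for example, read 9.07, 11.52 and 9.51 in knockouts and 9.95 and 8.28 in controls.

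The other genes of the pathway were taken from lists of 16 regulators and 30 targets of p53. Of these 46 genes, 43 were matched and 37 passed the filter, of which 16 were on average higher and 21 lower in knockouts. Every knockout lay above both controls for 2 of the 37, Cdkn1a and Bbc3 (2.68% of 12813 genes on their brightest probe sets), and below both for 2, Ptprv and Pcna (4.5% of those genes). None passed an adjusted p of 0.05 in the limma fit, and 0 had an unadjusted p under 0.05. Their median difference was -0.06, against -0.03 over 12813 genes. Among the 14 tested regulators 5 were higher and 9 lower. Ppp1r13l, an inhibitor that binds p53, differed by 0.32 (SE 0.34), the p53 ubiquitin ligase gene Rchy1 by 0.22 (SE 0.24) and the DNA damage kinase gene Atr by -0.40 (SE 0.47). Atr was 0.0074 without knockout replicate 2, where it had its lowest value. Cdkn2a, the gene of Arf, read 4.81, 4.73 and 4.78 in knockouts and 4.73 in each control, and was left out by the filter.

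Of 6 tested cell cycle arrest targets, 3 were higher and 3 lower. Cdkn1a, the gene of the cell cycle inhibitor p21 and the best known p53 target, read 7.79, 8.86 and 8.04 in knockouts and 7.62 and 7.54 in controls. All knockouts lay above both controls, and knockout replicate 2 was the highest. The difference was 0.65 (SE 0.36, 1.57-fold, limma adjusted p = 1), and 0.34 without that array. Plk2, a polo-like kinase gene, differed by 0.61 (SE 0.39) and was highest in the same array, at 7.98. Ptprv, a phosphatase gene of the p53 response, read 7.81 in each knockout and 8.10 and 7.83 in controls, a difference of -0.15 (SE 0.15) with all knockouts below both controls.

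Of 8 tested cell death targets, 5 were higher and 3 lower. Bbc3, which encodes the pro-apoptotic protein PUMA, read 7.77, 8.06 and 7.76 in knockouts and 7.75 and 7.43 in controls. The knockouts lay above both controls by a gap of 0.0027, with a difference of 0.27 (SE 0.19). Apaf1, the scaffold of the apoptosome, differed by 0.30 (SE 0.40) and the membrane protein gene Perp by 0.26 (SE 0.60), and both were negative without knockout replicate 2 (-0.05 and -0.30). Bax was not analysed here. Of 9 tested repair and metabolism targets, 3 were higher and 6 lower. Ddit4, an inhibitor of mTORC1, differed by 0.69 (SE 0.51), the DNA polymerase gene Polk by -0.40 (SE 0.35) and the replication clamp gene Pcna by -0.10 (SE 0.13). Pcna read 12.62, 12.68 and 12.68 in knockouts and 12.77 and 12.75 in controls, with all knockouts below both controls.

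**Figure D4:**
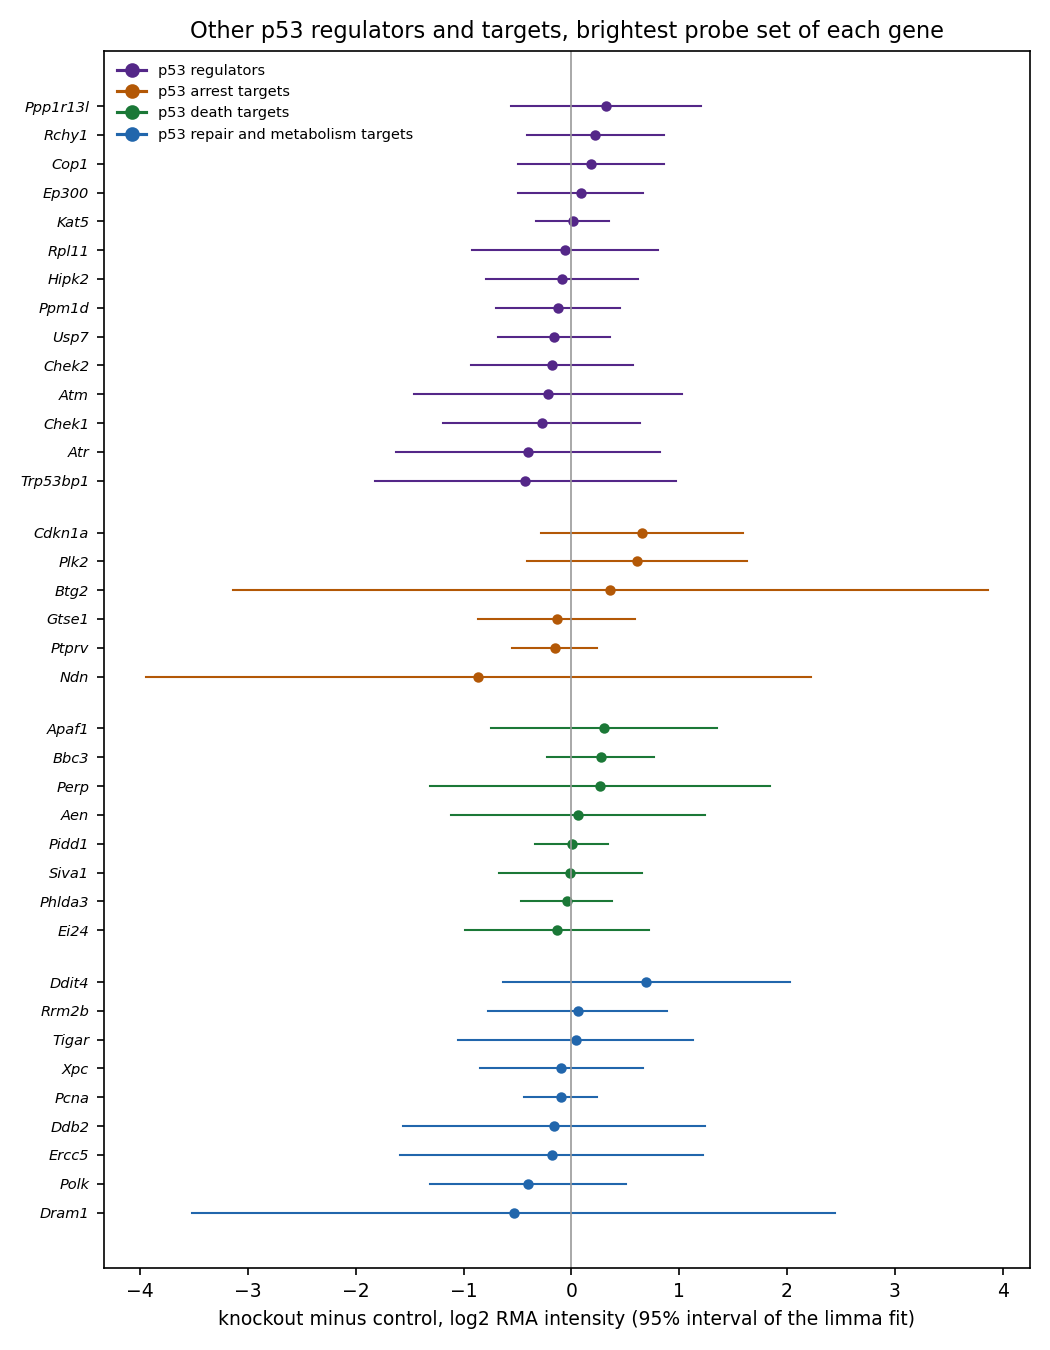
Log2 difference between knockout and control (horizontal axis) with its 95% interval from the limma fit, for 37 other p53 regulators and targets on their brightest probe sets, in 4 groups by role. Points lie on both sides of 0 in each group, and each interval includes 0.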

How the data were processed

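The authors deposited log2 intensities, 1 per probe set and array, and per the submitters' processing notes RMA was run in Affymetrix Expression Console; its version was not given in the sources at hand. Per the labels' protocols, biotin-labelled cRNA was made by repeated in vitro transcription, which favours 3' ends. RMA forces arrays to one distribution and compresses dim values. Of 45101 rows, 64 control probe sets were left out of tests, as was the 40% with the lowest mean (below 5.77). Probe sets with 1 gene symbol numbered 34945, with several 932 and unnamed 9160.

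Knockout minus control was fitted in limma 3.58.1 (R 4.3.3; lmFit, eBayes, no covariate, two-sided, Benjamini-Hochberg over 27022 probe sets). SE are the moderated ones. Arrays, not depth, limit precision. The p-values set each difference against the spread between these samples, moderated over all tested probe sets. The fit was tested on simulated data. A gene outside the 10 is given on its brightest probe set. Named were Zbtb7a, Cdkn1a, Bax, Cdkn2a, up to 3 list genes of smallest p (with the brightest for stress lists), and the 5 genes nearest to the member of widest range. Genes, lists and tests were chosen with earlier results of these data known. Figures were drawn with matplotlib 3.10.9.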

Additional observations from a re-analysis of the deposited data

How the results depend on the processing

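No member probe set was called under any alternative run (no filter, a filter on the lowest 60%, another eBayes prior, cyclic loess, median centring, array weights, a replicate block, each array left out), with 0 to 2 at an unadjusted p under 0.05. Of 117 recomputed differences, 103 kept their sign. This count includes runs that cannot alter a difference (no filter, the filter on the lowest 60%, another eBayes prior). It also includes averages over the probe sets of a gene, and the replicate block, which repeats the differences without knockout replicate 3. The count is thus not a measure of stability. With array weights, which gave knockout replicate 2 a weight of 0.204 and replicate 1 a weight of 7.67, Ccng1 became 0.18, Gadd45b -0.19, Gadd45a 0.31 and Zmat3 0.51. With all probe sets of a gene averaged, Ccng1 became 0.24 and Sesn2 0.056. As single arrays were left out, the differences ranged from -0.091 to 0.28 for Mdm4, -0.20 to 0.14 for Ccng1, -0.25 to 0.68 for Trp53inp1, -0.56 to 0.15 for Sesn2, -0.35 to 0.49 for Zmat3, 0.60 to 2.23 for Gadd45a and -0.30 to 0.63 for Gadd45b. The cause of these changes was not tested.

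Member probe sets with every knockout above or below the controls were counted again with single arrays left out. Fewer arrays leave more probe sets without overlap. Without knockout replicate 1 there were 6 above and 0 below (6.39% and 7.11% of all). Without knockout replicate 2 there were 6 and 3 (14.3% and 12.4%), and without knockout replicate 3 there were 5 and 4 (7.89% and 9.91%). Without control replicate 1 there were 7 and 4 (17.9% and 26.3%), and without control replicate 2 there were 6 and 0 (16.5% and 15.2%). Cyclic loess gave 3 above and 2 below, against 5.62% and 6.69% of all. In the sample titles, same-numbered arrays are linked only by that number. The correlation of their deviations from the group means was -0.54 for replicate 1 and -0.57 for replicate 2. With 2 controls, the deviations of one mirror those of the other, so these correlations cannot show whether same-numbered arrays were paired. With the replicate block, Sesn2 became 0.15 and Zmat3 -0.14, and 0 member probe sets were called. These are the differences without knockout replicate 3, which has no same-numbered control. The 3 and 2 arrays leave an interval of -1.13 to 3.96 for Gadd45a.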

Other observations

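Relatives of the members differed among themselves. Gadd45g, the remaining Gadd45 gene, read 7.70, 9.48 and 7.59 in knockouts and 7.42 and 6.87 in controls. All knockouts lay above both controls, with knockout replicate 2 the highest and a difference of 1.11 (SE 0.66, limma adjusted p = 1; 0.50 without that array). Sesn3, the remaining sestrin, differed by -0.32 (SE 0.49) and Zmat1 by -0.33 (SE 0.36). Of 6 tested relatives, 2 were higher and 4 lower.

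Genes of the integrated stress response, which also induces Sesn2, had 4 of 9 tested members higher and a median of -0.0007. Atf4, its central factor, differed by 0.23 (SE 0.23) and Trib3, a pseudokinase gene, by -0.48 (SE 0.31). NF-kappaB response genes, which include known companions of Gadd45b, had 7 of 10 members higher and 6 of 10 highest in knockout replicate 2. Over all tested genes these shares were 43.7% and 26.2%. Without that array 5 of the 10 were higher, and their median difference went from 0.18 to -0.0076. Nfkbiz, an atypical inhibitor of NF-kappaB, read 9.29, 11.87 and 8.75 in knockouts and 7.75 and 8.58 in controls, a difference of 1.80 (SE 1.03). Nfkbie differed by 0.22 (SE 0.19), Nfkb2 by -0.23 (SE 0.20) and the brightest, Nfkbia, by 0.14 (SE 0.32). In the immediate early list, Ier3 differed by 0.86 (SE 0.63), Atf3 by 1.69 (SE 1.48), Klf4 by 2.12 (SE 1.94) and the brightest, Dusp1, by 1.16 (SE 1.51). None of these passed the limma test.

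Some p53 targets were named after their values were seen. Of the 23 other p53 targets that passed the filter, 12 were highest and 7 lowest in knockout replicate 2. Over 12813 tested genes these shares were 26.2% and 40.7%. Aen and Ercc5 were among the 7. Pmaip1, which encodes the pro-apoptotic protein NOXA, read 8.50 in knockout replicate 2 and 4.16 to 4.51 in the other arrays, and its mean lay below the filter. Fas, a death receptor gene also below the filter, read 5.75 there and 4.25 to 4.37 elsewhere. Btg2, an antiproliferative gene, read 7.86, 11.40 and 7.98 in knockouts and 9.68 and 7.76 in controls. Ndn, the p53 target necdin of quiescent stem cells, ran the other way, at 7.79 in knockout replicate 2 and 10.20 to 11.42 elsewhere, like the LT-HSC genes.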
